A study of Mus musculus with 20 samples.

Results

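Complement and coagulation genes that the liver supplies to the plasma were described in livers of 20 male mice. The set is defined by name and comprises 39 genes of the complement system and of blood clotting whose main source is the hepatocyte, of which 38 had a row in the table of 46078 genes, 19 of complement and 19 of coagulation. Klkb1, the gene of plasma prekallikrein, was not analysed here, since its identifier in the annotation used matched no row. All 38 passed the filter on low counts.

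Complement is a chain of plasma proteins that marks and perforates foreign cells. Recognition molecules activate proteases, the proteases assemble convertases that cleave C3 and then C5, and C5b recruits C6, C7, C8 and several copies of C9 into the membrane attack complex. Coagulation is a second protease cascade: contact and tissue factor triggers converge on factor X and thrombin, thrombin turns fibrinogen into fibrin, and natural anticoagulants and plasmin hold the clot in check. Hepatocytes secrete most of these proteins, many are rich in disulfide bonds between cysteines, and several, fibrinogen and C3 among them, are acute-phase proteins whose synthesis rises during inflammation.

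The mice belonged to a line of mixed 129/C57BL/6 background that lacks 1 or both copies of Cse (official symbol Cth), which encodes the enzyme that makes cysteine from cystathionine. Cse+/- mice were kept on a control diet (n = 2), a diet without cysteine (no-Cys, n = 4) or a diet without tryptophan (no-Trp, n = 3). Cse-/- mice received no-Cys food (n = 4), no-Trp food (n = 3) or no-Trp food together with buthionine sulfoximine (BSO, n = 4), which is an inhibitor of the first step of glutathione synthesis. The labels call the control genotype wild type, and the study's list of mice gives it as heterozygous, the name used here. All mice were at least 9 weeks old and calorie-restricted, and livers were taken 2 days after the diet was changed. No Cse-/- group on the control diet was analysed here. The libraries carry the names av01 to av22 in the table and no replicate numbers.

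Counts on genes ranged from 11785740 to 57986121 per library, with a median of 15252745. Levels are given in CPM, the usual count scale relative to library size, here after TMM scaling. Cth lay at 6.37 to 14.4 CPM in the 11 Cse-/- libraries and at 88.4 to 332 CPM in the 9 Cse+/- libraries. Cse-/- mice on no-Cys differed from Cse+/- mice on no-Cys in many genes: of 14759 genes tested, 11.6% were called higher and 12.2% lower (edgeR quasi-likelihood test, adjusted p under 0.05). Among hepatocyte markers, 4 of 5 tested were lower in that comparison (median −0.77 on the log2 scale, Alb −1.26), and their summed level was 38572 to 65287 CPM in the Cse-/- no-Cys livers against 83973 to 106541 CPM in the Cse+/- no-Cys livers, with none of the defining markers at 0. Of other cell types, 0 of 7 Kupffer cell and 0 of 6 endothelial markers were called, nor any of 3 lymphocyte markers tested, and 1 of 3 platelet markers was lower. Stellate cell markers were lower in 2 of 6 (summed 185 to 226 CPM against 233 to 279 CPM), cholangiocyte markers in 2 of 5 (16.4 to 28.6 against 45.9 to 57.9 CPM) and red cell markers in 5 of 5 (69.1 to 114 against 201 to 406 CPM). In whole liver, fewer cells of a type and less RNA per cell cannot be told apart, and the part of these shifts in the results below was not tested.

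Library av08 stood apart within the Cse-/- no-Cys group. It had the highest value of the 4 libraries for 30 of the 38 genes, and across the 38 genes its median log2 ratio to the mean of the other 3 was 0.37, whereas the corresponding medians of av05, av06 and av07 lay between −0.21 and −0.10. The counts and medians over the set, and the genes described most closely, are therefore also given without av08, which was singled out after its values were seen.

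On Cse+/- control livers, levels per kilobase of exon spanned from 1665 CPM per kilobase for Fgg to 4.21 for Masp1. Fgg was followed by Vtn (1493), C3 (1384), Fgb (1364) and Fga (1357), and the lowest of these 5 lay at percentile 99.3 of all tested genes. The lowest after Masp1 were Cfb at 4.70, C2 at 12.04 and Pros1 at 21.9 CPM per kilobase. Low values of Cfb and C2, the serine protease subunits of the alternative and classical C3 convertases, have to be read with the annotation: 71.6% and 40.5% of their 61-base words also occur in other annotated genes, mainly in Gm20547, a gene model that overlaps both, and reads that fit more than 1 gene may not have been counted. The same holds for Masp2 (52.0% shared, mainly with Tardbp), C1ra (46.8%, mainly with C1rb), Serpinc1 (33.0%), C4b (28.6%, with C4a) and Kng1 (13.4%, with Kng2), so that the levels of these genes are uncertain.

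**Figure D1:**
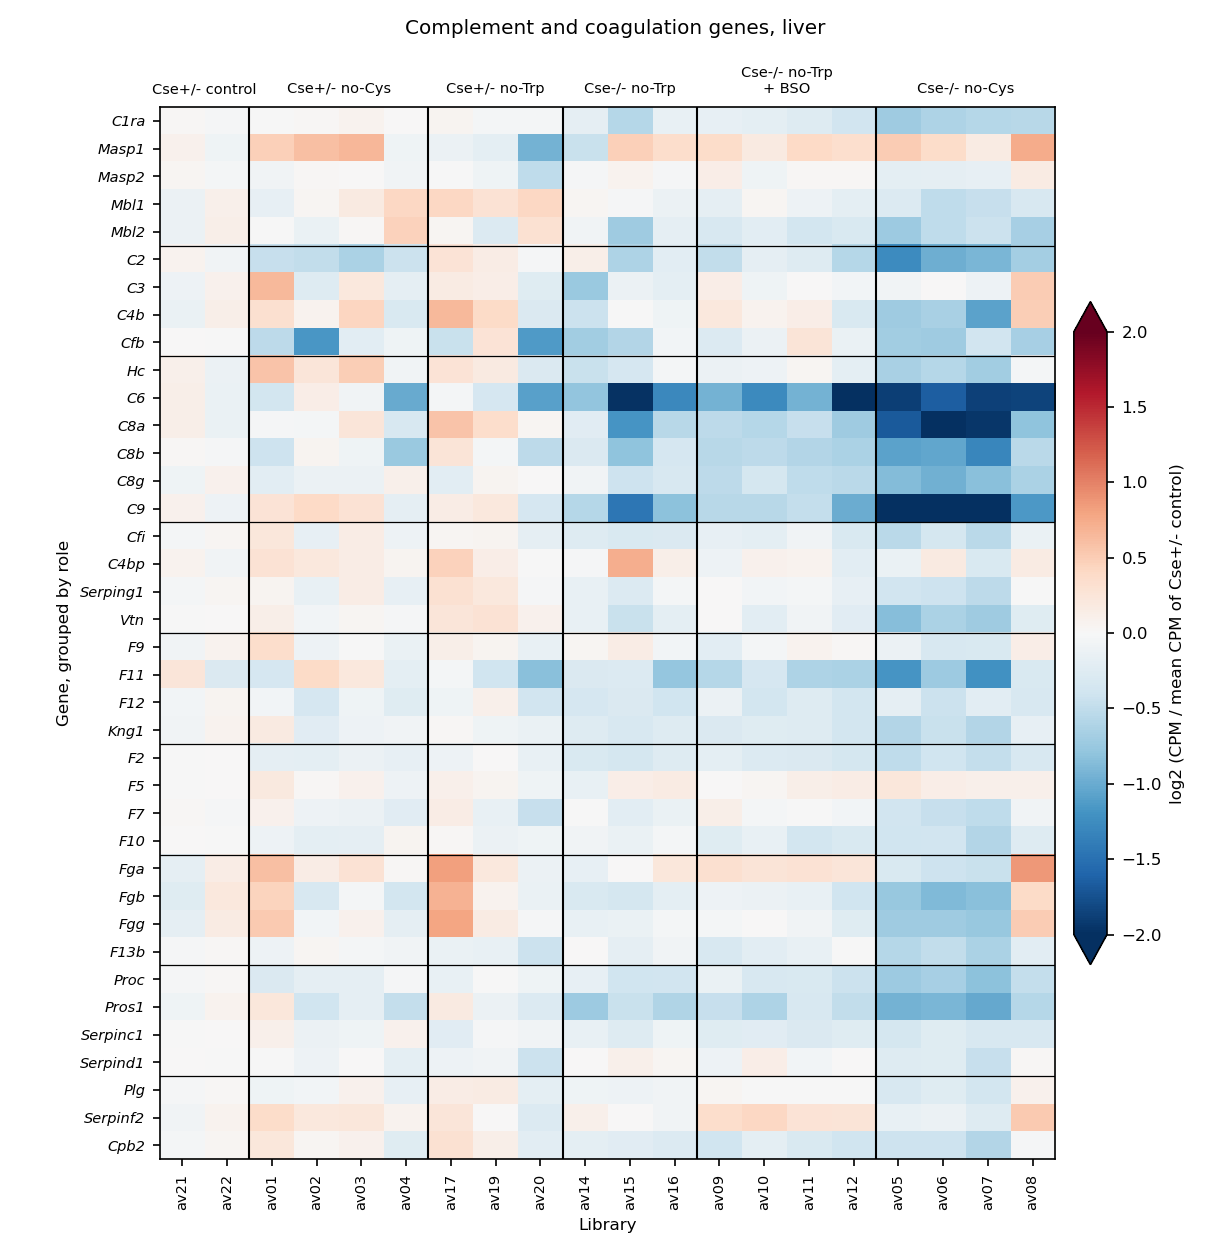
Heat map of the 38 genes (rows, grouped by role) in the 20 libraries (columns, grouped by genotype and diet); colour gives the log2 ratio of CPM to the mean of the 2 Cse+/- control libraries and is capped at 2 in either direction. The Cse-/- no-Cys columns av05, av06 and av07 are blue in most rows, C9, C8a and C6 most deeply, and av08 is paler or red in the rows of the fibrinogen chains and C3.

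The genotypes were first compared on the same diet without cysteine. Since no Cse-/- mice on the control diet were analysed here, the loss of Cse and the lack of cysteine cannot be told apart in this comparison alone, and the genotypes on no-Trp and the interaction are given further on. In Cse-/- against Cse+/- livers on no-Cys, 21 of the 38 genes were lower and 0 higher, against a background of 12.2% of all genes called lower and 11.6% called higher (edgeR). With unadjusted p below 0.05, 23 were lower and 0 higher, and DESeq2 called 22 lower and 0 higher. The median log2 fold change of the 38 genes was −0.39, against −0.01 for all genes tested, and 36 of the 38 values were below 0. The Cse-/- no-Cys livers did not overlap with the Cse+/- no-Cys livers for 15 genes, all lower, where 11.2% of all genes showed the same. The genes are mostly abundant; among the 1476 genes with a mean of at least 100 CPM, 21.7% were called lower, and of the 33 genes of the set above that level 18 were. For 30 of the 38 genes the lowest of the 6 group means was that of Cse-/- mice on no-Cys, as it was for 25.3% of all genes tested.

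The terminal pathway, whose products build the membrane attack complex, held the 3 genes with the greatest fall and was lower throughout: all 6 of its genes in the set were called. C9 forms the wall of the pore. Its level was 409.5, 446, 412 and 298 CPM in the Cse+/- no-Cys livers and 52.8, 35.9, 24.8 and 153 CPM in the Cse-/- no-Cys livers, the highest of these being av08. The groups did not overlap. The fall was 5.89-fold (log2 fold change −2.56 ± 0.38 SE, adjusted p = 0.000114), and without av08 the log2 fold change was −3.37 ± 0.26. Of all 14759 genes, 64 had a lower log2 fold change, and of the 1476 genes of at least 100 CPM, 7 did. C9 (ENSMUSG00000022149) lies on the plus strand of chromosome 15 at 6445327 to 6498751 (GRCm38).

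C6, which binds C5b and starts the assembly of the complex, lies on the same chromosome at 4727175 to 4814967. Its level was 74.1, 87.3, 74.6 and 75.4 CPM in the Cse-/- no-Cys livers against 212, 299.9, 261 and 136 CPM in the Cse+/- no-Cys livers. Here av08 was like its group, and the groups were again separate. The log2 fold change was −1.55 ± 0.28 (adjusted p = 0.000623), a 2.92-fold fall, and without av08 it was −1.53 ± 0.32 (adjusted p = 0.00172).

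C8 consists of 3 chains from 3 genes. C8a, the pore-forming alpha chain, measured 188, 143, 155 and 343 CPM in the Cse-/- no-Cys livers and 591, 584, 713 and 482 CPM in the Cse+/- no-Cys livers. All Cse-/- values were below all Cse+/- values, and av08 was again the highest of its group (log2 fold change −1.52 ± 0.23, adjusted p = 0.000138, and −1.87 ± 0.19 without av08). C8b, the beta chain, is the neighbour of C8a on chromosome 4 (104766317 to 104804548, and 104815679 to 104876398 for C8a, on opposite strands). It fell by 0.69 ± 0.18 on the log2 scale (adjusted p = 0.00979), with overlapping groups, since av08 had 264 CPM and av04 of the Cse+/- group 229 CPM, and by 0.87 ± 0.18 without av08. The ratio of C8a to C8b in CPM was 1.47 to 2.105 in the Cse+/- no-Cys livers and 0.771 to 1.30 in the Cse-/- no-Cys livers, so within each liver the neighbours were not lower in proportion. C8g, a lipocalin and the gamma chain, on chromosome 2, measured 249, 234, 253 and 294 CPM against 391, 421, 418 and 485 CPM, with no overlap and the smallest standard error of the 6 (−0.74 ± 0.10, adjusted p = 5.51e-05, and −0.81 ± 0.11 without av08).

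Hc, the mouse gene of C5, the protein from which C5a and C5b are cut, also lies on chromosome 2. It fell by 0.79 ± 0.16 on the log2 scale (adjusted p = 0.00155), with 357 to 389.9 CPM in 3 Cse-/- no-Cys livers, 562 CPM in av08 and 551 to 859 CPM in the Cse+/- no-Cys livers, so that av08 alone overlapped. Without it the fall was 0.96 ± 0.15. C7, which joins C6 in the complex and is not counted in the set, averaged 0.794 CPM against 1.00 CPM and was not called.

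**Figure D2:**
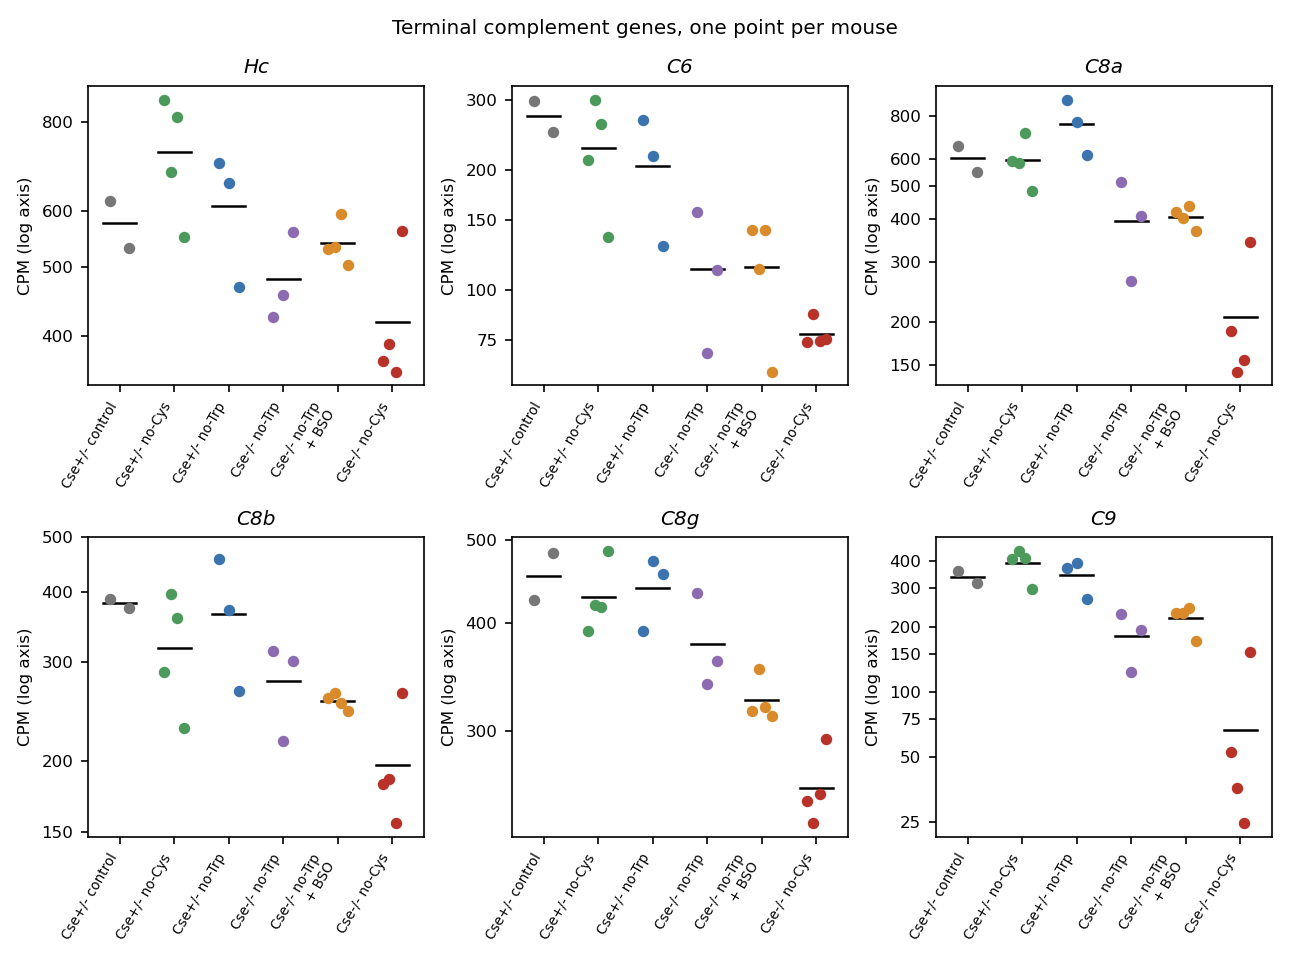
CPM on log axes of the 6 terminal complement genes in the 6 groups; each point is 1 mouse and the bar is the group mean. For C9 the 4 Cse-/- no-Cys mice sit between 24.8 and 153 CPM, below the 4 Cse+/- no-Cys mice at 298 to 446 CPM, and the other Cse-/- mice lie at 124 to 244 CPM.

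Promoter sequences, taken from RefSeq (GRCm38.p6, 250 bases before to 50 after the transcription start), were found for 29 of the 38 genes, with 2 promoters for C8g. They were searched on both strands for letters bound by factors known for liver and acute-phase genes. TTGCNNAA (C/EBP) was in 9 of the 29 genes, C9, C3, Fga and Fgb among them, and in 10.8% of all 32851 promoters. TTCNNNGAA (STAT) was in 8, among them C8a, Fga, Fgb and Vtn, and in 8.30% of all promoters. GTTAATNAT (HNF1) was in C4bp, F13b, Fga and Hc and in 0.801% of all promoters. CAAAGTCCA (HNF4) and TTGCATCA (a C/EBP-ATF composite element) were in 0 of the 29, and in 0.475% and 0.895% of all promoters. TGTTTAC (FOXA) was in F11 alone (3.65% of all promoters), TGACNNNGC (an antioxidant response element core) in Mbl1 and Serpind1 (12.4%) and TATAAA in C3, Hc and Vtn (13.6%). C9 and C8a are shown for the size of their fall together with a match, and Hc and F13b for the HNF1 letters. Fgb is shown because av08 lay far above the rest of its group. The promoters of C6, C8b and C8g held none of the searched letters, although C6 fell slightly more than C8a. A match is a description of the letters and is not a measured binding site. Capitals mark the matches, on either strand: C/EBP in C9 from position −132, STAT in C8a from −228, TATAAA from −239 and HNF1 from −77 in Hc, HNF1 from −54 in F13b, and STAT from −162 and C/EBP from −80 in Fgb, counted from the start site.
C9, chr15:6445096-6445395, plus strand: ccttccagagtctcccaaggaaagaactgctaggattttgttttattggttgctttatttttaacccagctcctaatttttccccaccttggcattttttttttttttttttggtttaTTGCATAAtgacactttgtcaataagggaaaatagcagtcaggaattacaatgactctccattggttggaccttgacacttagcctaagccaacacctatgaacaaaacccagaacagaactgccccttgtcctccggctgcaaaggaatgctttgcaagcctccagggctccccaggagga
C8a, chr4:104876349-104876648, minus strand: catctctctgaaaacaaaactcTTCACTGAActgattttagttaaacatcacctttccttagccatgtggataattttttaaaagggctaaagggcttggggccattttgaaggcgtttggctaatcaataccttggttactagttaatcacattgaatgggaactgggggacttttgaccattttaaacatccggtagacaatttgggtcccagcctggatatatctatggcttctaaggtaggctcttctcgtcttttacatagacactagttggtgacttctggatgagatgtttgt
Hc, chr2:35061363-35061662, minus strand: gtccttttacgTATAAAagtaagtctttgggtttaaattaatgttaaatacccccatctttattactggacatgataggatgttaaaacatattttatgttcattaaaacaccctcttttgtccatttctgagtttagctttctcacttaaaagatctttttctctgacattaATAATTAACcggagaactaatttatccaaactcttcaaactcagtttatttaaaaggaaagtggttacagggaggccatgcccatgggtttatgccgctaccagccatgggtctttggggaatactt
F13b, chr1:139501457-139501756, plus strand: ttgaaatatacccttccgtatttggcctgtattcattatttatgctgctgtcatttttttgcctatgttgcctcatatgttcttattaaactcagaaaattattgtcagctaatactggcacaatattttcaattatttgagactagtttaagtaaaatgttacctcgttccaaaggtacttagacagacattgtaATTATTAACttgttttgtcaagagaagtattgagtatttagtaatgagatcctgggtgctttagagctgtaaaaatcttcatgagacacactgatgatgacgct
Fgb, chr3:83049814-83050113, minus strand: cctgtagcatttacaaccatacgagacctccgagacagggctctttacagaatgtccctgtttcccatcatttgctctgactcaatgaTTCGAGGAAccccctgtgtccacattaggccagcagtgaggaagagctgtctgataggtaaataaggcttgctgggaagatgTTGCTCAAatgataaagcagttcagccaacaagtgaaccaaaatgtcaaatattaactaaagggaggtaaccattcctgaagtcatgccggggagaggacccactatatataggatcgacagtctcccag

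Of the 5 genes of the set that start the lectin and classical pathways, 3 were lower. C1ra, a protease of the C1 complex, was 148 to 165 CPM in Cse-/- no-Cys livers and 242 to 256 CPM in Cse+/- no-Cys livers, without overlap (−0.64 ± 0.09, adjusted p = 5.17e-05). Its near-copy C1rb was close to 0 throughout, at 0.156 CPM at most, and C1s1, the partner protease, was lower by 0.89. The mannose-binding lectins fell as well, Mbl2 by 0.68 ± 0.15 and Mbl1 by 0.52 ± 0.10, both without overlap. The lectin-associated proteases did not pass the test, with log2 fold changes of −0.06 ± 0.10 for Masp2 and 0.02 ± 0.20 for Masp1.

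Of the 4 genes of the convertases, only C2 was lower. C2 measured 19.4, 23.8, 24.8 and 29.1 CPM against 33.9, 33.1, 30.2 and 34.5 CPM, a narrow gap with no overlap (−0.44 ± 0.14, adjusted p = 0.0272, and −0.54 ± 0.14 without av08). The call was lost without av01, av02, av04, av05, av06 or av07 (−0.44 to −0.33, adjusted p = 0.0508 to 0.109). C3, the hub of all pathways, had a log2 fold change of −0.04 ± 0.19, with 6647 to 7164 CPM in 3 Cse-/- no-Cys livers, 10162 CPM in av08 and 5935 to 11171 CPM in Cse+/- no-Cys livers. C4b (−0.50 ± 0.26) and Cfb (−0.16 ± 0.25) were not called. C4b was 439.7 to 589 CPM in 3 livers and 1302 CPM in av08, and without av08 it was called (−0.95 ± 0.20, adjusted p = 0.00216). Its near-copy C4a was 2.86 to 5.61 CPM against 18.2 to 32.9 CPM, lower by 2.37 ± 0.43 (adjusted p = 0.000656).

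Among the 4 inhibitors and regulators, Vtn and Cfi were lower. Vtn, vitronectin, which keeps the forming attack complex out of membranes, had 1676, 1945, 1861 and 2573 CPM against 3279, 2915, 3115 and 2995 CPM and did not overlap (−0.61 ± 0.12, adjusted p = 0.000843, and −0.75 ± 0.10 without av08). Cfi, the protease that inactivates C3b and C4b, fell by 0.42 ± 0.11. Serping1, the C1 inhibitor, at −0.29 ± 0.11 (adjusted p = 0.0596), and C4bp, the C4b-binding protein, at −0.19 ± 0.15, did not pass.

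In coagulation 9 of 19 genes were lower and the median change was −0.30 on the log2 scale, beside 12 of 19 and −0.52 in complement, a difference that was not tested. F11, the factor of the intrinsic pathway that activates factor IX, fell most of them: 42.3, 57.9, 41.2 and 77.0 CPM against 75.7, 125, 110.4 and 83.1 CPM, with av08 overlapping (−0.85 ± 0.21, adjusted p = 0.00573, and −1.07 ± 0.20 without av08). Kng1, kininogen, the cofactor of the contact system, fell by 0.39 ± 0.10. F9 (−0.18 ± 0.12) and F12 (−0.12 ± 0.10) were not called. In the extrinsic and common pathway, F10, the factor that cuts prothrombin, fell by 0.30 ± 0.09 and F2, prothrombin itself, by 0.26 ± 0.08, both without overlap, while F7 (−0.26 ± 0.12) and F5, the cofactor of factor X (0.08 ± 0.09), were not called. The call of F10 was lost without av04 (−0.24, adjusted p = 0.0556) or av07 (−0.23, adjusted p = 0.0894) and that of F2 without av05 or av07 (−0.22 in both, adjusted p = 0.0702 and 0.0748). Both were also lost without the filter on low counts (adjusted p = 0.0723 and 0.131) and in a fit of the compared groups alone (0.0649 and 0.0838), as was Kng1 in the latter (0.0604). F5 was the steadiest of the 38 genes, with 464 to 605 CPM over all 20 libraries, and C9 the most variable, with 24.8 to 446 CPM.

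Of the 4 anticoagulants 3 were lower. Pros1, protein S, was lower by 0.67 ± 0.14, Proc, protein C, by 0.50 ± 0.09 and Serpinc1, antithrombin, by 0.31 ± 0.08, each without overlap, and Serpind1, heparin cofactor II, was not called (−0.15 ± 0.10). The call of Serpinc1 was lost without the filter (adjusted p = 0.0618) and in the fit of the compared groups (0.0563). Proc had 493.4, 518, 461 and 583 CPM against 669, 723, 719 and 804 CPM. Of the 6 vitamin K-dependent genes, F2, F10, Proc and Pros1 were lower and F7 and F9 were not called. In fibrinolysis, Cpb2, a carboxypeptidase that protects fibrin, fell by 0.37 ± 0.12, while Plg, plasminogen (−0.15 ± 0.10), and Serpinf2, the plasmin inhibitor (−0.19 ± 0.14), were not called. The call of Cpb2 was lost without av01, av02, av03, av05, av06 or av07 (−0.37 to −0.28, adjusted p = 0.0657 to 0.134) and in the fit of the compared groups (0.0721).

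The clot genes split. F13b, the carrier subunit of the factor that cross-links fibrin, was 155 to 207 CPM against 224 to 246 CPM, without overlap (−0.42 ± 0.10, adjusted p = 0.00446). The 3 fibrinogen chains, which lie together on chromosome 3 between 83007724 and 83049863, were not called: Fga −0.23 ± 0.24, Fgb −0.39 ± 0.25 and Fgg −0.43 ± 0.24. Fgb measured 3077, 2823, 2906 and 6756 CPM in the Cse-/- no-Cys livers and 7059.9, 4170.4, 5083 and 4017 CPM in the Cse+/- no-Cys livers. The first 3 values were below all Cse+/- values, and the fourth, av08, was above all but 1. Without av08 all 3 chains were called lower, Fga by 0.66, Fgb by 0.79 and Fgg by 0.85 on the log2 scale (adjusted p = 0.00898, 0.00552 and 0.00143).

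Each chain varied by 2.48-fold to 2.98-fold over the 20 libraries, and Fgb and Fgg kept a ratio in CPM between 1.24 and 1.53. Fga followed them less closely, with a ratio of Fga to Fgb from 0.760 to 1.22 and a ratio of Fga to Fgg that varied 1.47-fold, up to 1.63. In Cse+/- livers Fga to Fgb was 0.760 and 0.822 on the control diet, 0.800 to 0.864 on no-Trp and 0.875 to 1.09 on no-Cys. In Cse-/- livers the ratio was 0.871 to 1.06 on no-Trp, 1.02 to 1.22 on no-Trp with BSO and 1.04 to 1.11 on no-Cys. The libraries highest in Fgb were av17 of the Cse+/- no-Trp group (8420.0 CPM), av01 of the Cse+/- no-Cys group (7059.9 CPM) and av08 (6756 CPM). Saa1, serum amyloid A, an acute-phase gene outside the set, was 1429 CPM in av17, 729 CPM in av01 and 191 CPM in av08, the highest value of each of these 3 groups. In the other Cse-/- no-Cys livers Saa1 was 12.8 to 30.2 CPM.

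**Figure D3:**
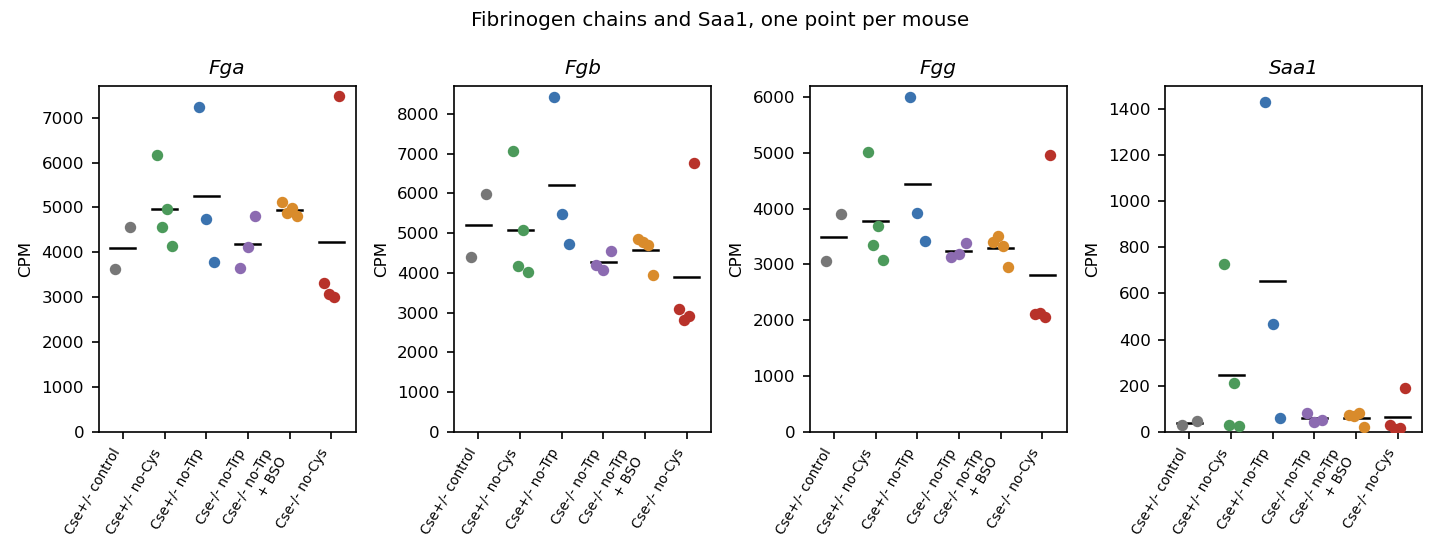
CPM of the 3 fibrinogen chains and of Saa1 in the 6 groups, each on an axis that starts at 0; each point is 1 mouse and the bar is the group mean. In the Cse-/- no-Cys group 3 mice lie at 2823 to 3077 CPM of Fgb and 1 mouse, av08, lies at 6756 CPM.

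Without av08, 29 of the 38 genes were called lower and 0 higher in the comparison of genotypes on no-Cys (12.4% of 14740 genes lower). All 21 calls made with av08 were among the 29. The added genes were the 3 fibrinogen chains, C4b, Serping1, F7, Serpinf2 and Plg. The set's median became −0.52 on the log2 scale, 37 of the 38 values were below 0, and 31 genes lay below without overlap, where 16.2% of all genes did so with these 3 livers.

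Within Cse-/- mice, the diet without cysteine was compared with a diet that lacked another amino acid, tryptophan. Of the 38 genes, 9 were lower and 0 higher (background 5.35% lower and 5.05% higher; 12 lower and 1 higher with unadjusted p below 0.05; DESeq2, 10 lower and 0 higher), and the set's median was −0.20 on the log2 scale. Among the 1476 genes with a mean of at least 100 CPM, 13.2% were called lower, and of the 33 genes of the set above that level 8 were. Hepatocyte markers were lower in 3 of 5 (median −0.54), with a summed level of 38572 to 65287 CPM on no-Cys against 63389 to 68685 CPM on no-Trp. Cholangiocyte markers were lower in 1 of 5 and red cell markers in 3 of 5, and the part of these shifts was not tested. The terminal pathway gave 3 of the 9, C9 (−1.45 ± 0.39), C8a (−0.93 ± 0.24) and C8g (−0.56 ± 0.11), and the others were C2, F13b, Mbl1, Proc, C1ra and F10. The groups did not overlap for 6 genes below (background 9.83%), C2, C8g, F13b, Mbl1, Proc and F10, and for 1 above (background 10.2%), C3, which was not called (0.44 ± 0.20). These comparisons share the Cse-/- no-Cys livers with the previous one.

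C2 had 50.4, 30.3 and 40.5 CPM on no-Trp against 19.4 to 29.1 CPM on no-Cys, and C8g 434, 339.9 and 362 CPM against 234 to 294 CPM. Both sets of livers were separate (C2, −0.74 ± 0.15, adjusted p = 0.00424; C8g, −0.56 ± 0.11, adjusted p = 0.00392). F13b had 241, 210.4 and 229 CPM on no-Trp against 155 to 207 CPM (−0.39 ± 0.11, adjusted p = 0.0273). Mbl1 had 148, 141 and 133 CPM against 101 to 118 CPM (−0.36 ± 0.11, adjusted p = 0.0442). C9 had 228, 124 and 193 CPM on no-Trp, and only av08, at 153 CPM, reached into that range (adjusted p = 0.0238). Without av08, 13 of the 38 genes were lower (background 6.77%), the median was −0.36, 27 genes lay below without overlap (background 15.5%), and C9 fell by 2.26 ± 0.25, C8a by 1.28 ± 0.20, C2 by 0.84 ± 0.15 and C8g by 0.63 ± 0.11 on the log2 scale. The count of 9 was 2 without av05, av06, av07 or av14 and 3 without av16. In a fit of the compared groups alone, C8g was the 1 call kept, and the adjusted p was 0.0520 for C2, 0.0658 for Mbl1, 0.0996 for F13b, 0.114 for C8a and 0.135 for C9.

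BSO, added to the no-Trp diet of Cse-/- mice to block glutathione synthesis while cysteine was present, called 0 of the 38 genes in either direction (edgeR, background 0.488% higher and 0.305% lower; 0 higher and 1 lower with unadjusted p below 0.05; DESeq2, 0 and 0). The median log2 fold change was 0.03. C9 was 230.0, 231, 244 and 171 CPM with BSO and 228, 124 and 193 CPM without it (0.27 ± 0.39, adjusted p = 0.832).

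Against the BSO group, Cse-/- no-Cys livers were lower in 6 genes and higher in 0 (background 1.42% lower and 1.33% higher; 16 lower with unadjusted p below 0.05; DESeq2, 7 lower). Among the 1476 genes with a mean of at least 100 CPM, 4.95% were called lower, and of the 33 genes of the set above that level 5 were. The set's median was −0.26 on the log2 scale, and 11 genes lay below without overlap (background 6.24%). Hepatocyte markers were lower in 3 of 5 here too (median −0.55; summed level with BSO 59306 to 74647 CPM) and cholangiocyte markers in 2 of 5, whose part was not tested. The 6 were C9 (−1.72 ± 0.37, adjusted p = 0.0219), C8a (−0.97 ± 0.23, adjusted p = 0.0307), C2 (−0.57 ± 0.14, adjusted p = 0.0331), Vtn (−0.47 ± 0.12, adjusted p = 0.0355), Proc and C1ra. C8a had 419, 403, 435 and 368 CPM with BSO, above the 343 CPM of av08, and Vtn 3039.6, 2611, 2883 and 2589 CPM, above its 2573 CPM. C2 had 33.3, 41.1, 38.8 and 31.4 CPM with BSO, above 29.1 CPM, and C9 did not overlap either. Without av08, 17 genes were lower (background 3.83%), the median was −0.39, 30 genes lay below without overlap (background 12.5%), and the values were −2.53 ± 0.25 for C9, −1.32 ± 0.19 for C8a, −0.67 ± 0.14 for C2 and −0.61 ± 0.10 for Vtn. By contrast, 0 genes were called without av05, av06, av07, av09 or av11 and 3 without av10 or av12. In the fit of the compared groups 3 of the 6 calls were kept, and C9 (adjusted p = 0.0545), Proc (0.0573) and Vtn (0.0659) were lost.

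On the no-Trp diet, Cse-/- and Cse+/- livers differed in 0 of the 38 genes (edgeR, background 1.4% higher and 1.24% lower; 1 higher and 13 lower with unadjusted p below 0.05; DESeq2, 0 higher and 5 lower). The median log2 fold change was nevertheless −0.25, against 0.00 for all genes, and 13 genes lay below without overlap (background 9.51%) and 1 above, Serpind1 (background 10.1%). Of the 5 hepatocyte markers 0 were called, with a median of −0.26. Their summed level was 63389 to 68685 CPM in Cse-/- and 72890 to 83041 CPM in Cse+/- livers, without overlap. Cholangiocyte sums (27.6 to 46.2 against 48.0 to 62.1 CPM) and red cell sums (119 to 184 against 211 to 258 CPM) were also lower without overlap. Sums of the other cell types overlapped, and the part of these shifts was not tested. Within the set, C8a (−0.94 ± 0.26, adjusted p = 0.0617), C9 (−0.93 ± 0.42, adjusted p = 0.242) and C6 (−0.85 ± 0.32, adjusted p = 0.156) had the lowest log2 fold changes. C9 was 228, 124 and 193 CPM in Cse-/- and 374, 392 and 269 CPM in Cse+/- livers, which did not overlap. C4a, outside the set, was called lower in this comparison too (−2.95 ± 0.47).

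Taking all diets, each of the 11 Cse-/- livers was below each of the 9 Cse+/- livers for 2 of the 38 genes, and 0.495% of all genes tested showed the same. The highest Cse-/- and the lowest Cse+/- value were 244 and 269 CPM for C9, and 219 and 236 CPM for C1ra.

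**Figure D4:**
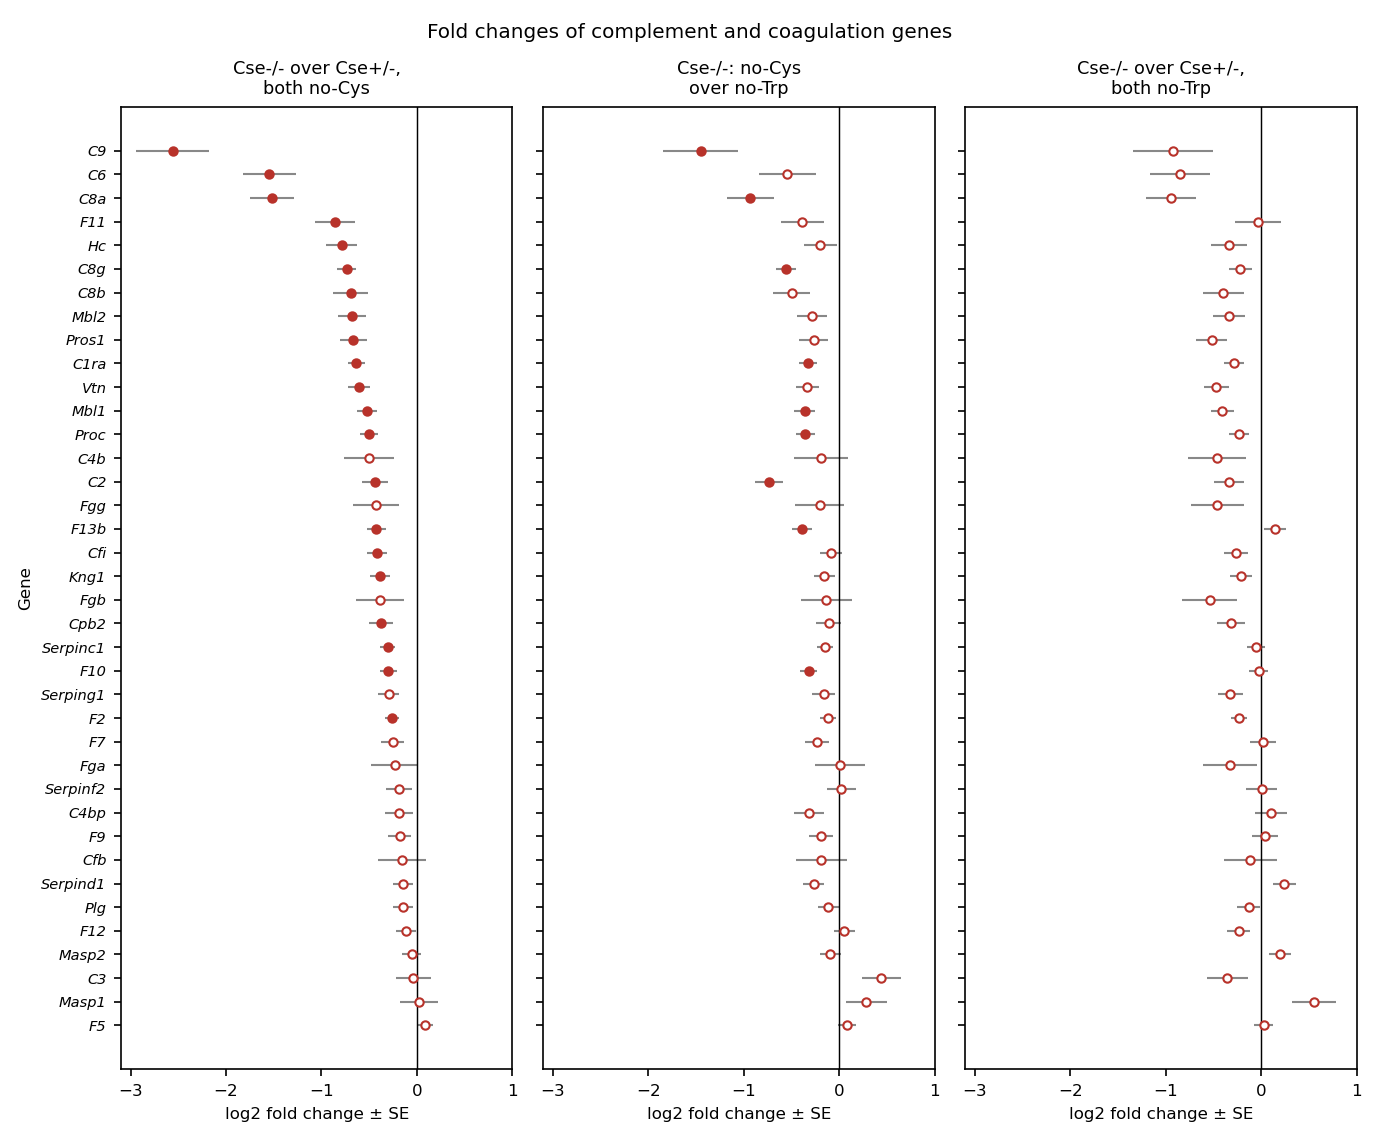
Log2 fold changes with their standard errors (horizontal bars) of the 38 genes in 3 comparisons, ordered by the first; filled points passed an adjusted p of 0.05 and open points did not. In the left panel 21 points are filled, in the middle panel 9 and in the right panel 0, and C9, C6 and C8a are the lowest 3 in the left and the right panels.

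In Cse+/- mice, which can make cysteine, the no-Cys diet called 0 of the 38 genes against the control diet (edgeR, background 0.989% higher and 1.19% lower; 0 higher and 1 lower with unadjusted p below 0.05; DESeq2, 0 and 0), and so did the no-Trp diet (background 0.00678% higher and 0.0407% lower; 1 higher and 0 lower with unadjusted p below 0.05; DESeq2, 0 and 0). Both rest on 2 control mice. Of the 5 hepatocyte markers 0 were called between any of the 3 diets, but their summed level was 105711 and 106772 CPM on the control diet, 83973 to 106541 CPM on no-Cys and 72890 to 83041 CPM on no-Trp, the last without overlap with the others, and the part of this shift was not tested. C9 was 360.4 and 318 CPM on the control diet, within the range of the Cse+/- no-Cys livers. Between the no-Cys and no-Trp diets of Cse+/- mice, Masp1 was higher (0.82 ± 0.22, adjusted p = 0.0269) and C2 lower (−0.64 ± 0.15, adjusted p = 0.0121), 1 gene each against a background of 4.63% and 3.41%. The call of Masp1 was lost without av02 (0.76, adjusted p = 0.0722), av03 (0.73, adjusted p = 0.0725) or av20 (0.60, adjusted p = 0.132) and in the fit of the compared groups (adjusted p = 0.0688). C2 was 30.2 to 34.5 CPM on no-Cys, 46.1 to 56.3 CPM on no-Trp and 44.5 and 48.7 CPM on the control diet. The Cse+/- no-Cys values of C2 were below those of both other diets, but C2 was not called against the 2 control mice. The 1 lower call against no-Trp is near the share of all genes.

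Whether the genotype difference itself differed between the no-Cys and no-Trp diets was tested as an interaction. It was called for 1 of the 38 genes, F13b, in the negative direction, a share near the background, and for 0 in the positive (edgeR, background 2.69% and 1.67%; 7 negative and 0 positive with unadjusted p below 0.05; DESeq2, 2 and 0). Hepatocyte markers were called negative in 2 of 5 (median −0.51) and red cell markers in 1 of 5, and their part was not tested. F13b was 155 to 207 CPM in Cse-/- no-Cys livers, 224 to 246 CPM in Cse+/- no-Cys livers, 210.4 to 241 CPM in Cse-/- no-Trp livers and 177 to 219 CPM in Cse+/- no-Trp livers. The genotype difference was thus negative on no-Cys and 0.15 on no-Trp, an interaction of −0.57 ± 0.15 (adjusted p = 0.0378). For C9 the interaction was −1.63 ± 0.56 (adjusted p = 0.100). Without av08 it was −2.44 ± 0.34 (adjusted p = 0.000237), and 6 genes were called (background 4.57%): C9, C8a, C8g, F11, F13b and Serpind1. Without av01 or av15, 2 were called, and without av02, av03, av05, av06, av07, av14, av16 or av20, 0.

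The order of the group means of C9 was Cse+/- no-Cys (392 ± 64.2 CPM, SD), Cse+/- no-Trp (345 ± 66.5), Cse+/- control (339 ± 30.2), Cse-/- no-Trp with BSO (219 ± 32.8), Cse-/- no-Trp (181 ± 52.8) and Cse-/- no-Cys (66.5 ± 58.5). The 3 Cse+/- groups overlapped with each other, as did the 2 no-Trp groups of Cse-/- mice. For C8a, Cse-/- no-Cys (207 ± 92.2 CPM) was also last, below Cse-/- no-Trp (394 ± 125) and the BSO group (406 ± 28.9). For C6 the 3 Cse-/- groups overlapped, with means of 77.8 ± 6.29, 113 ± 43.9 and 115 ± 37.1 CPM on no-Cys, no-Trp and no-Trp with BSO.

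Other genes of both systems, kept in separate lists and not counted in the set, were read in the same fits. Of 20 further complement genes tested, 13 were lower and 0 higher in Cse-/- against Cse+/- livers on no-Cys, led by C4a, whose values are given above, against 12.2% of all genes lower and 11.6% higher. Of 20 further coagulation genes, 2 were lower, F2r (−0.77 ± 0.18) and Pzp (−0.39 ± 0.13), and 2 higher: Mcfd2 (0.63 ± 0.08) and Lman1 (0.45 ± 0.09), which encode the receptor pair that carries factors V and VIII from the endoplasmic reticulum. Of 12 hepatocyte transcription regulators 1 was called, Cebpb (−0.68 ± 0.21), whose product is a C/EBP factor of the acute-phase response. Of 8 acute-phase genes 1 was lower, Orm1 (−1.16 ± 0.38). The counts in the latter 3 lists lie near the shares of all genes.

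The share of cysteine codons was read from the annotation, since cysteine is the amino acid withdrawn. The median over the 38 genes was 3.51% of codons, against 1.92% over 12601 tested genes with a coding sequence, and 28 of the 38 lay above the latter. C6 had the highest share, 6.96%, and Serpinf2 the lowest, 0.815%, with 4.10% in C9. Across the 38 genes the share and the log2 fold change on no-Cys were weakly related (Pearson r = −0.24, Spearman rho = −0.19), and across the 12601 genes rho was −0.09. Genes are not independent replicates, and they share the same libraries, so this is given as a description.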

How the data were processed

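RNA of 20 mouse livers was sequenced after poly(A) selection. The deposited values are raw counts per gene: per the labels and methods, the authors aligned paired reads to GRCm38 with HISAT2 2.1.0 and counted them with HTSeq 0.11.0, without normalization. Which annotation release they used is not stated in those sources. Of 21 count columns, 1 was not used, since its condition is not given. Symbols and coordinates are those of GENCODE M21, which named 45143 of 46078 genes, and promoters are from RefSeq (GRCm38.p6).

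Genes were filtered with filterByExpr (minimum count 10, minimum total 15), scaled by TMM and fitted with edgeR 4.0.16 (limma 3.58.1, R 4.3.3): a quasi-likelihood model of 6 group means over all 20 libraries, which thus share 1 estimate of the spread. P-values were adjusted by Benjamini-Hochberg over 14759 genes, with a threshold of 0.05, and the standard error of a log2 fold change was taken from its F statistic. Folds of low genes depend on edgeR's prior count. DESeq2 1.42.0 was an alternative, and the fit was tested on simulated data. Each of 25 pairs of libraries of a group differed by more than counting noise (chi-square per gene 9.60 to 64.2, genes with at least 20 counts). The tests weigh a difference against this spread between libraries, in which mouse and library preparation cannot be told apart. Alternatives were other scalings and filters, a fit of the compared groups, a threshold of 0.01, thinning to the shallowest library, and leaving out each library in turn.

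The 39 genes and the other lists were chosen with earlier results of these data known. Values per library are given for called genes without overlap and with the 4 largest changes in each main comparison, and other genes are given by role. Beyond that rule, values per library of C2, F11, Fgb, Proc and Vtn in the genotype comparison on no-Cys, of C9 in the remaining comparisons and of Saa1 were given after they were seen. C1rb, C4a, Kng2, Cth and genes added to a role for comparison were named besides. Strand-specific counting is not stated, so antisense reads cannot be told apart.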

Additional observations from a re-analysis of the deposited data

Results flagged for a closer look

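In groups of 4 mice, 10 of 114 gene and group combinations held a library far from the other 3. Chance flags about 1 in 20 groups of a single gene, but the genes of 1 liver are not independent, so the count cannot be read against that share. Of the 10, 7 were av08 in the Cse-/- no-Cys group, and in all 7 it was high: Fga at 7482 CPM (the others 3013 to 3312), Fgb at 6756 CPM (2823 to 3077), Fgg at 4959 CPM (2055 to 2121), C3 at 10162 CPM (6647 to 7164), Hc at 562 CPM (357 to 389.9), Serpinf2 at 990.2 CPM (574 to 639) and Masp2 at 178 CPM (139 to 141). In the same group C6 was 87.3 CPM in av06 against 74.1 to 75.4 CPM, and Cfb was 10.2 CPM in av07 against 8.14 to 8.41 CPM. Serpinc1 was 1930.3 CPM in av11 of the BSO group, below the 1996 to 2003 CPM of the others.

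F13b was the 1 gene of the set whose genotype difference was called as unlike between the diets without cysteine and without tryptophan, by −0.57 on the log2 scale. That 1 of 38 is near the share of all genes, 2.69%. The values behind it are in the report, and the call was kept in 11 of 22 settings.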

How the results depend on the processing

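No direction of a called gene reversed. In Cse-/- against Cse+/- livers on no-Cys, 15 of 21 calls were kept in every setting, the others being C2, Cpb2, F2, F10, Kng1 and Serpinc1, and the count was 17 to 29 with each library left out. For Cse-/- no-Cys against no-Trp, the 9 lower calls became 2 at an adjusted p of 0.01, 5 with no filter, 1 in a fit of the compared groups and 2 to 13 with a library left out. Against the BSO group, 6 became 4 in a fit of the compared groups, with 3 of the 6 kept, 0 at 0.01 and 0 to 17 with a library left out. For the genotypes on no-Trp, 0 became 3 with no filter, 5 with DESeq2 and 0 to 1 with a library left out. For Cse+/- no-Cys against no-Trp, the higher call was lost (0) at 0.01 and in the fit of the compared groups, and 0 to 1 were higher with a library left out; the lower call was lost (0) at 0.01, and 1 to 2 were lower with a library left out. The interaction gave 0 at 0.01, 0 in the fit of the compared groups, 2 with DESeq2 and 0 to 6 with a library left out. The cause of these shifts was not tested. Fits with a library left out, or of the compared groups alone, also hold fewer samples. Thinning every library to 11785740 counts changed no count by over 1.5 times. No paired analysis was possible because the columns of the table carry no replicate numbers.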
